A study of Drosophila melanogaster with 4 samples.

Results

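3RHet is the sequence that release 5 of the fly genome gives to mapped pericentric heterochromatin of the right arm of chromosome 3, kept apart from the main arm sequence 3R. Every region of significant enrichment that the authors' combined list places on 3RHet was taken, with no selection on length or score. That gave 322 of the 21932 enriched regions of the combined list. Applied in the same way, the lists called from single ChIP libraries held 263 of 6699 regions in replicate 1 and 247 of 10048 regions in replicate 2. None of the lists names a depleted region on 3RHet. The regions are sites of chromatin recovered with Su(var)3-9-Q2598, an affinity-purified rabbit antibody made against residues 320 to 419 of Su(var)3-9. The series holds 4 libraries, 2 of ChIP DNA and 2 of input DNA, all from wild-type Oregon-R larvae of the third instar, so no genotype or treatment was compared. Whole larvae hold many tissues, and a region list does not say in which cells a region was bound. The lists describe the ChIP libraries, singly and as a set, and the input libraries enter no comparison below.

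Su(var)3-9 is a histone methyltransferase named for its effect on position-effect variegation, the patchy silencing of a gene placed next to heterochromatin. It methylates lysine 9 of histone H3, the mark that heterochromatin protein HP1 binds, and HP1 can in turn hold the methyltransferase in place. Pericentric heterochromatin is the compact, gene-poor and repeat-rich chromatin that flanks the centromere. Its sequence is hard to assemble, and reads from repeats are hard to place on it.

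The authors gave each region a score whose scale the lists do not name. Most of the values on 3RHet fit a log2 scale. Relative to one constant per list, 233 of the 322 scores on 3RHet in the combined list equalled the base 2 logarithm of a ratio of whole numbers with a denominator of at most 300, within a relative tolerance of 1e-08. With natural logarithms 1 score did so and with base 10 logarithms 6 scores did. In replicate 1, 229 of 263 scores on 3RHet fitted base 2, and in replicate 2 a smaller share did, 136 of 247. The other bases fitted at most 3 scores in either replicate list. For the remaining scores no such ratio was found. One unit of score is therefore read as a factor of 2 in that ratio, within a list. What the ratio divides is not stated, and the constant differs between lists, so scores are compared only inside a list. Read depth is unknown, because the lists hold no counts.

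In the combined list, enriched regions took up about as much of 3RHet as they left free. In each replicate list they took up less than they left free. The 322 regions of the combined list covered 1307 kb, or 51.9% of the 2517507 bp of the sequence. Replicate 1 alone covered 1018 kb, or 40.4%, and replicate 2 alone covered 848 kb, or 33.7%. As a mean over both replicate lists the covered share was 37.1% ± 4.77 (SD, n = 2). The number of regions came to 104 per Mb in replicate 1 and 98.1 in replicate 2, against 128 in the combined list.

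The domains were broad and very uneven in size. In the combined list the shortest measured 1001 bp, the median was 2583 bp and the longest reached 23709 bp. The middle of the distribution, between its lower and upper quartiles, ran from 1616 to 4772 bp. Of the 322 regions, 119 were at most 2 kb long and together held 13.1% of the enriched bases. A further 124 regions of 2 to 5 kb held 30.2%, and 52 regions of 5 to 10 kb held 26.5%. The 27 regions over 10 kb were 8.39% of the regions and held 30.1% of the bases. Replicate 1 had 15 regions over 10 kb and replicate 2 had 9, and their longest regions measured 21746 bp and 18466 bp. Some regions of the combined list overlapped several regions of a replicate list. Of the 322 regions, 34 overlapped more than 1 replicate 1 region and 41 overlapped more than 1 replicate 2 region.

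Regions of 3RHet made up more of the longest calls than of each list as a whole. The longest 1% of the combined list comprised 219 regions, of which 34 (15.5%) lay on 3RHet, which held 1.47% of all regions in that list. In replicate 1 the share was 12 of 67 regions (17.9%) against 3.93% of the list, and in replicate 2 it was 16 of 100 (16.0%) against 2.46%. The same was not seen among the highest scores. Of the top 1% by score 3RHet held 4 of 219 regions in the combined list, 0 of 67 in replicate 1 and 2 of 100 in replicate 2. Long regions were not particular to 3RHet. The heterochromatic sequence of the left arm, 3LHet, had 29 combined regions over 10 kb, against 27 on 3RHet, and its longest measured 25481 bp. The share of 3LHet among the longest 1% was not computed.

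Scores on 3RHet were nevertheless above the median of each list for most regions. In the combined list the median score was 0.83 with quartiles of 0.62 and 1.08, and 304 of the 322 regions (94.4%) exceeded the median of the full list, 0.40. In replicate 1 the median was 1.22 and 253 of 263 regions exceeded that list's median of 0.68. In replicate 2 the median was 0.93 and 237 of 247 regions exceeded that list's median of 0.55. Only 18 regions of the combined list on 3RHet fell at or below the list's median, and 17 of these were at most 2 kb long. These shares are descriptions of 1 sequence, with no test attached.

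Score and length went together in all 3 lists, and the widest range of scores was found in short regions. Across regions of 3RHet the Spearman correlation of length with score was 0.42 in the combined list (n = 322), 0.51 in replicate 1 (n = 263) and 0.41 in replicate 2 (n = 247). The regions share libraries and lie next to each other, so these values are descriptions. In the combined list the median score was 0.61 up to 2 kb, 0.84 from 2 to 5 kb, 1.04 from 5 to 10 kb and 1.10 over 10 kb. Scores up to 2 kb ran from 0.14 to 3.28, whereas those over 10 kb ran from 0.72 to 1.80.

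**Figure D1:**
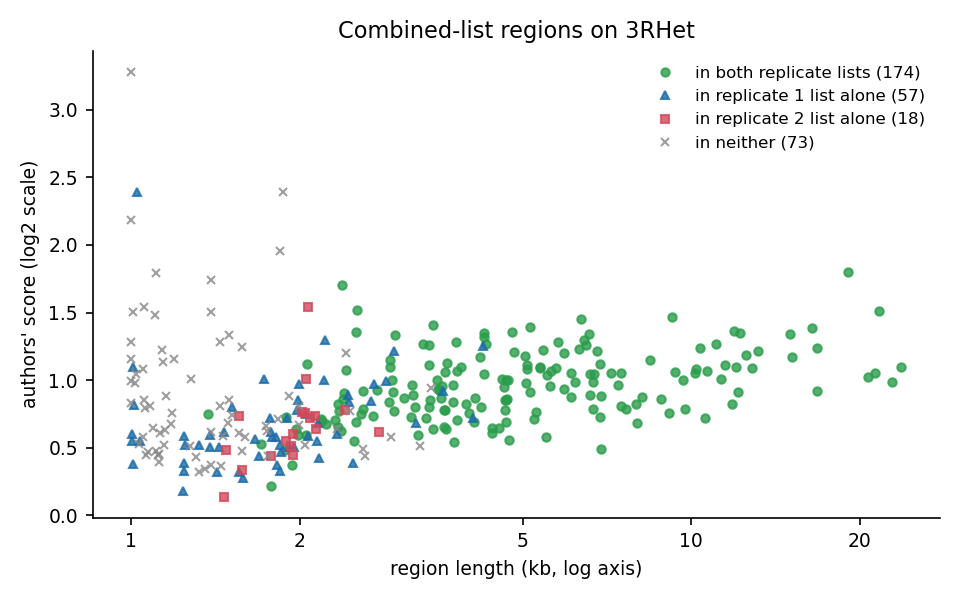
Each point is 1 of the 322 combined-list regions on 3RHet, with its length in kb on a log axis and the authors' score on a log2 scale, marked by the replicate lists that its bases touch. All 79 regions over 5 kb touch both replicate lists, and the highest score, 3.28, belongs to a region of 1001 bp that touches neither.

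The longest region spanned 23709 bp at 3RHet:898084-921792 with a score of 1.10. Regions of replicate 1 filled 73.4% of it as 5 pieces, and regions of replicate 2 filled 84.8% of it as 6 pieces. The next longest, 22864 bp at 3RHet:2268820-2291683, scored 0.98 and was filled to 79.7% by replicate 1 and to 76.0% by replicate 2. Next in length was a domain of 21621 bp at 3RHet:2081034-2102654, which had the highest score of these 5, at 1.51. A single replicate 1 region took in all of that domain, and replicate 2 filled 95.8% of it with 3 regions. The fourth spanned 21283 bp at 3RHet:243080-264362 with a score of 1.06, and the fifth spanned 20710 bp at 3RHet:1943083-1963792 with a score of 1.02. The fifth was called as 1 region in each replicate, filling 100% and 89.2% of it. By length these 5 domains ranked 10, 12, 15, 16 and 19 among all regions of the combined list.

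The highest scores belonged to short regions that the replicate lists mostly lacked. A region of 1001 bp at 3RHet:1143495-1144495 scored 3.28, rank 18 of the whole combined list, and touched neither replicate list. A score of 2.39 was shared by a region of 1026 bp at 3RHet:521276-522301 and one of 1866 bp at 3RHet:1078005-1079870. The first of this pair lay wholly inside a replicate 1 region that scored 2.49, and the second touched neither list. The last 2 of the 5 highest, 1001 bp at 3RHet:2112904-2113904 with 2.19 and 1848 bp at 3RHet:1658040-1659887 with 1.96, also touched neither list. The regions of 1001 and 1026 bp were shorter than any region of either replicate list, where the shortest measured 1301 bp. The lists hold no counts, so the number of reads behind these scores is unknown. Altogether 15 regions scored over 1.5. Of these, 9 touched neither replicate list, 2 touched 1 list and 4 touched both. The regions touching neither list had a median score of 0.74 and a median length of 1309 bp.

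Coverage varied widely along the sequence. In 51 consecutive windows of 50 kb, the last of which is 17507 bp, the share covered by the combined list ran from 0% to 88.6% with a median of 56.5%. Windows with at least 75% of their bases covered were called dense and those under 25% sparse. That gave 8 dense and 9 sparse windows, and the other 34 lay in between. Single replicate lists reached lower maxima, 72.3% in replicate 1 and 65.6% in replicate 2, and no window reached 75% in either.

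**Figure D2:**
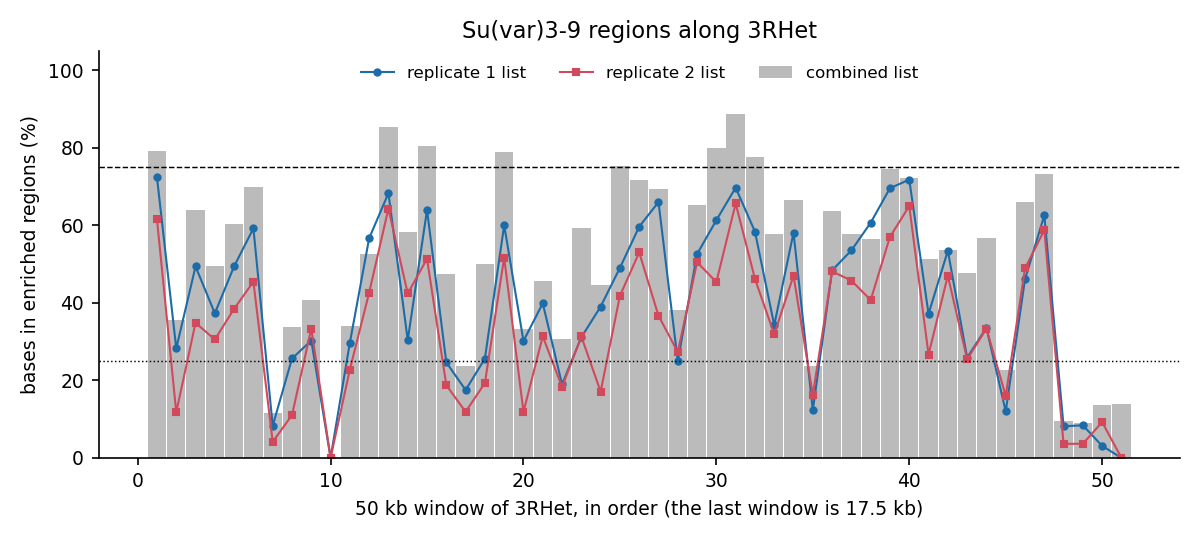
Covered share in percent of each 50 kb window of 3RHet, in order along the sequence, with bars for the combined list, blue circles for replicate 1 and red squares for replicate 2, and lines at 75% and 25%. The dense windows stand apart as single windows except for 1 run of 3, and the last 4 windows are all sparse.

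The longest dense run covered 3 windows, 3RHet:1450001-1600000. Of its bases 82.0% lay in combined regions, 63.1% in replicate 1 regions and 52.4% in replicate 2 regions. It contained the densest window of the sequence, 3RHet:1500001-1550000, with 88.6%, 69.7% and 65.6%. The second densest window, 3RHet:600001-650000, was covered at 85.2% in the combined list, 68.3% in replicate 1 and 64.3% in replicate 2. Next came 3RHet:700001-750000 with 80.5%, 63.9% and 51.3%, in the same order of lists. Also dense were 3RHet:900001-950000, at 79.0% in the combined list, and 3RHet:1200001-1250000, at 75.3%. The first window of the sequence, 3RHet:1-50000, was dense as well, at 79.1% in the combined list, 72.3% in replicate 1 and 61.5% in replicate 2. The limit of 75% cut close to 1 neighbour, since 3RHet:1900001-1950000 reached 74.6% in the combined list, 69.6% in replicate 1 and 57.0% in replicate 2. Counted in the replicate lists, 10 windows had at least 50% of their bases covered in both.

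Over successive stretches of 500 kb the covered share was highest from base 1500001 to base 2000000. The combined list covered 44.4%, 54.4%, 57.9%, 63.9% and 40.3% of the 5 successive stretches from base 1 to base 2500000. Replicate 1 covered 36.0%, 40.7%, 44.2%, 53.6% and 29.0%, and replicate 2 covered 27.1%, 33.7%, 35.3%, 46.3% and 27.2%. That stretch led in each of the 3 lists, and replicate 1 exceeded replicate 2 in all 5 stretches.

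Joining regions separated by at most 2 kb turned the 322 regions into 130 blocks. Of the blocks, 61 were single regions and 22 exceeded 20 kb, and these 22 held 51.9% of all enriched bases. The longest ran for 56994 bp, 3RHet:1283896-1340889, with 9 combined regions filling 86.5% of it. Replicate 1 filled 79.4% of this block and replicate 2 filled 50.6%. The second, 3RHet:602092-654687, was 52596 bp long with 12 regions, and both replicates filled 64.8% of it. The third, 3RHet:1496667-1547643, measured 50977 bp and was filled to 93.4% by the combined list, 74.8% by replicate 1 and 68.6% by replicate 2. The last 2 of the 5 longest were 44761 bp at 3RHet:898084-942844 and 39460 bp at 3RHet:243080-282539.

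Stretches without any combined region fell into many short spaces and a few long ones. The median space was 1401 bp and 193 of 322 spaces were at most 2 kb. At the other extreme 11 spaces exceeded 20 kb, added up to 410 kb and made up 33.8% of all uncovered sequence. Replicate 2 had no base in any of these 11, and replicate 1 had bases in 4 of them, 2517 bp in all.

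**Figure D3:**
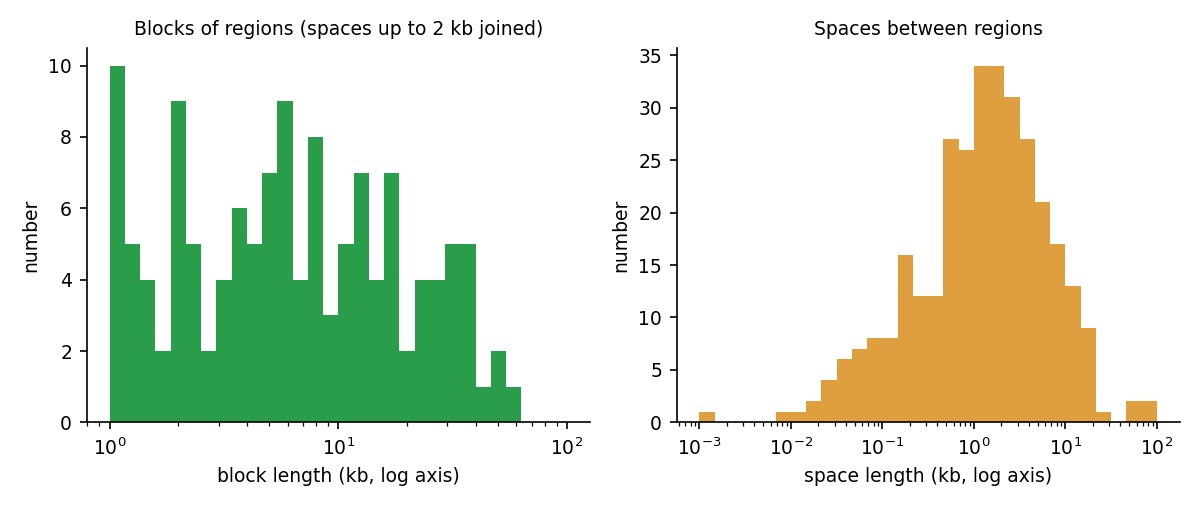
Histograms of the lengths in kb, on log axes, of the 130 blocks formed by joining combined regions across spaces of at most 2 kb, and of the 322 spaces on 3RHet, the bases before the first region included. The longest block is 57.0 kb, and 5 spaces lie beyond 25 kb, up to 85.0 kb.

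The longest space was 85022 bp at 3RHet:436254-521275. Replicate 1 regions reached into its edges by 254 bp in all, and 84768 bp within it were free of every list. The second, 73266 bp at 3RHet:2360516-2433781, held no base of any list. The third, 52920 bp at 3RHet:313702-366621, was reached by 59 bp of replicate 1. Those ranked next, 46787 bp at 3RHet:2217149-2263935 and 26430 bp at 3RHet:2447304-2473733, were empty in all 3 lists. Assembly gaps and sequence to which reads cannot be assigned also carry no region, and the part of either in these spaces was not tested, as no release 5 sequence was used here.

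The far end of 3RHet was the only run of more than 1 sparse window. From 3RHet:2350001 to base 2517507, over 168 kb, the combined list covered 11.0%, replicate 1 covered 5.85% and replicate 2 covered 4.91%. The 10 combined regions starting there were at most 2505 bp long. Their scores ran from 0.14 to 0.55 with a median of 0.46, all below the 3RHet median of 0.83. Each replicate list had 4 regions starting there, and 3617 bp of the run were in both. The covered shares and these shared bases include the end of a region that began before the run, 3RHet:2348961-2352602, with a score of 1.06. The only stretch in both lists that began inside the run was 1819 bp at 3RHet:2445239-2447057. The 2 windows just before this run, 3RHet:2250001-2350000, were covered at 69.7% in the combined list, 54.3% in replicate 1 and 53.8% in replicate 2.

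Both replicate lists placed their regions largely on the same bases of 3RHet. Bases in both lists came to 726 kb, or 28.8% of the sequence, and the Jaccard index, bases in both over bases in either, was 0.637. Of the bases in replicate 1, 71.3% lay in replicate 2 as well, and of the bases in replicate 2, 85.6% lay in replicate 1. Replicate 1 alone had 292 kb and replicate 2 alone had 122 kb. A partner in the other list, overlapping by at least 1 bp, was found for 200 of 263 replicate 1 regions (76.0%, 95% Wilson interval 70.5 to 80.8) and 216 of 247 replicate 2 regions (87.4%, 82.7 to 91.0). The Wilson intervals cover counting error only, and neighbouring regions are not independent. Shares with a partner over the whole of each list were not computed, so these are not read as particular to 3RHet. Regions with a partner had a median length of 3269 bp in replicate 1, where those without one had 1709 bp. The medians in replicate 2 were 2747 bp with a partner and 1614 bp without. Length raises the chance of overlap, and its part in this was not tested.

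The 2 lists also varied together from window to window. Over the 50 full windows of 50 kb the Pearson correlation of their covered shares was 0.93 and the Spearman correlation 0.91, given as a description because windows share libraries and neighbours. Replicate 1 had the higher share in 41 of 51 windows, replicate 2 in 8, and 2 windows had no base in either. The widest gap was in 3RHet:1300001-1350000, with 66.0% in replicate 1 and 36.7% in replicate 2. It overlaps the longest block. The lowest agreement among windows with over 10% in each list was in 3RHet:850001-900000, where 25.6% of bases were in replicate 1 and 19.3% in replicate 2 but 7.09% in both. For 235 overlapping pairs of regions the scores had a Spearman correlation of 0.54 and a Pearson correlation of 0.60 across pairs.

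**Figure D4:**
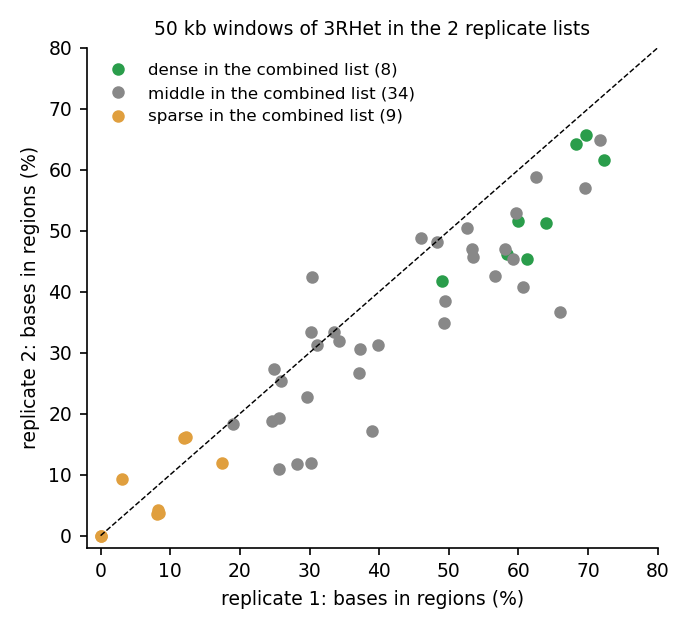
Covered share in percent of each 50 kb window of 3RHet in replicate 1, on the horizontal axis, and in replicate 2, on the vertical axis, coloured by the class of the window in the combined list, with a dashed line of equality. The 8 dense windows lie between 49.0% and 72.3% in replicate 1 and between 41.8% and 65.6% in replicate 2, and most points lie below the line.

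The longest uninterrupted stretches inside both lists were also described. Among the 5 longest, scores were highest at 3RHet:1637256-1654789, with 2.21 in replicate 1, 1.64 in replicate 2 and 1.80 in the combined list. That stretch was the second longest, at 17534 bp, after 18466 bp at 3RHet:1945208-1963673. The other 3, 14798 bp at 3RHet:1515531-1530328, 13287 bp at 3RHet:1662842-1676128 and 11314 bp at 3RHet:1965065-1976378, scored 1.39, 1.17 and 1.19 in the combined list. All 5 lay between base 1500000 and base 2000000, the stretch with the highest covered share. No stretch found in a single replicate list was as long. The longest in replicate 1 alone was 5578 bp at 3RHet:978009-983586, and the longest in replicate 2 alone was 2550 bp at 3RHet:1352680-1355229.

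Most regions of the combined list on 3RHet touched at least 1 replicate list. Of the 322 regions, 174 (54.0%, 95% Wilson interval 48.6 to 59.4) touched both replicate lists, 57 (17.7%, 13.9 to 22.2) touched replicate 1 alone and 18 (5.59%, 3.56 to 8.66) touched replicate 2 alone. The remaining 73 (22.7%, 18.4 to 27.6) touched neither. These shares were not computed over all regions of the combined list, so they are not read as particular to 3RHet. Regions in both lists held 80.7% of the enriched bases and had a median length of 4661 bp, against 1825 bp for those in replicate 1 alone, 1984 bp for those in replicate 2 alone and 1309 bp for those in neither. Every region over 4255 bp touched both replicate lists. Touching needs only 1 bp of overlap, which a longer region meets more easily, and the part of length in this was not tested. For example, the region of 11836 bp at 3RHet:77028-88863 touched both lists with 18.9% of its bases in replicate 2. Over the whole genome the shortest region measured 1001 bp in the combined list and 1301 bp in the replicate lists, and 36 of the 73 regions in neither list were shorter than 1301 bp. The combined list was made from the same libraries, so this overlap is no independent check.

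3RHet was set beside 3LHet, the matching heterochromatic sequence of the left arm, beside 2LHet, and beside the first 2 Mb of 3R, the centromere side of its own arm sequence. With 2 replicates an exact two-sided sign-flip permutation test of a difference cannot give a p below 0.5, so the values are given against the spread between replicates. The covered share of 3RHet was 37.1% ± 4.77 (SD, n = 2), against 42.8% ± 7.60 for 3LHet. The difference, 3RHet minus 3LHet, was −7.74 percentage points in replicate 1 and −3.74 in replicate 2, a mean of −5.74 ± 2.83 (exact permutation p = 0.5). Against 2LHet, covered at 27.7% ± 4.18, 3RHet was higher by 9.81 points in replicate 1 and 8.98 in replicate 2, a mean of 9.40 ± 0.586 (exact permutation p = 0.5). Each mean difference exceeded its SD over the 2 replicates. With 2 values this is no test, so no difference between the sequences is concluded from it. Pattern within 3RHet resembled that of 3LHet in some respects and differed in others. Median lengths in the combined list were 2583 bp on 3RHet and 2807 bp on 3LHet, with 27 and 29 regions over 10 kb, and the Jaccard indices of the replicate lists were 0.637 and 0.649. In the combined list 3LHet had 6 dense and 2 sparse windows of 50 kb, against 8 and 9 on 3RHet. In replicates 1 and 2, 3LHet had 3 and 2 dense windows, where 3RHet had 0 in each. The longest block measured 97763 bp on 3LHet and 56994 bp on 3RHet. Long empty spaces were more extensive on 3RHet, where the 11 spaces over 20 kb added up to 410 kb, than on 3LHet, where 5 such spaces added up to 164 kb. As a share of the uncovered sequence they made up 33.8% on 3RHet, 15.2% on 3LHet and 39.4% on 2LHet, where 2 spaces added up to 87.0 kb. The values from the combined list have no replicate, and none of these contrasts of pattern was tested. Assembly gaps and sequence to which reads cannot be assigned count as uncovered. Their amounts may differ between these sequences and the first 2 Mb of 3R, and their part in the contrasts was not tested.

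**Figure D5:**
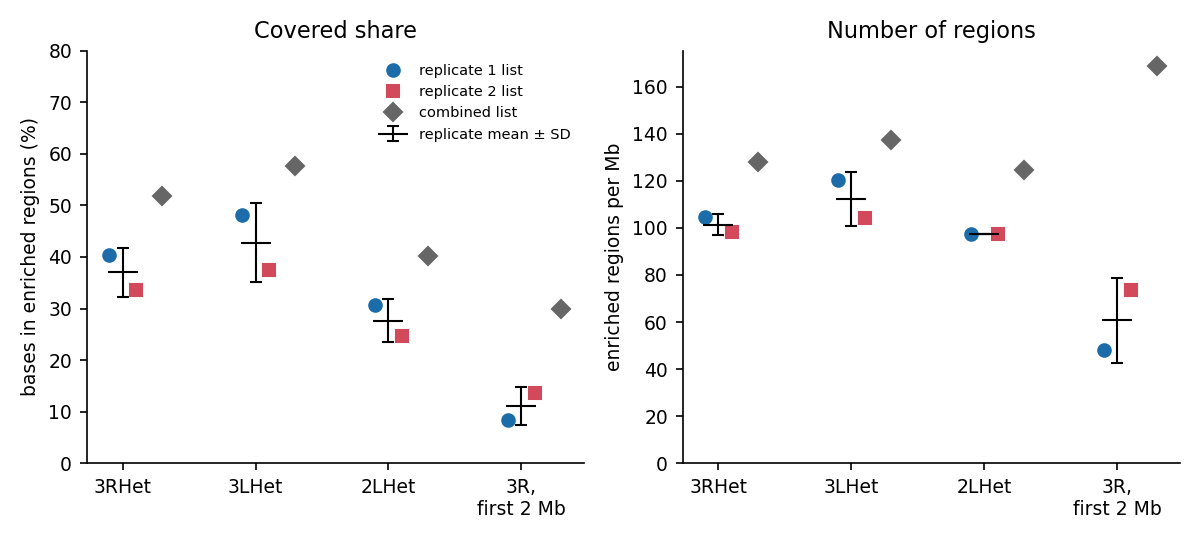
Covered share in percent and enriched regions per Mb for 3RHet, 3LHet, 2LHet and the first 2 Mb of 3R, with circles for replicate 1, squares for replicate 2, diamonds for the combined list and black bars for the replicate mean ± SD (n = 2). 3RHet exceeds the first 2 Mb of 3R in covered share in every list, while in the combined list it has fewer regions per Mb, 128 against 169.

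The contrast with the neighbouring arm sequence was the widest of the 3. Replicate 1 covered 40.4% of 3RHet, against 8.44% of the first 2 Mb of 3R, and replicate 2 covered 33.7% of 3RHet, against 13.7%. The difference was 32.0 and 20.0 percentage points, a mean of 26.0 ± 8.48 (exact permutation p = 0.5), or ratios of 4.79 in replicate 1 and 2.46 in replicate 2. In the combined list the shares were 51.9% on 3RHet and 30.0% on the first 2 Mb of 3R, a ratio of 1.73. In the combined list regions on 3RHet were fewer per Mb, 128 against 169 on the first 2 Mb of 3R, and longer. In the replicate lists they were also more numerous, at 101 ± 4.49 per Mb against 60.8 ± 18.0 (SD, n = 2 each). Median length in the combined list was 2583 bp on 3RHet and 1588 bp on the first 2 Mb of 3R, where the longest region was 4823 bp. On 3RHet 79 regions exceeded 5 kb, against 0 of 338 on the first 2 Mb of 3R. The median score in the same list was 0.83 on 3RHet and 0.37 on the first 2 Mb of 3R, and 304 of 322 regions against 110 of 338 exceeded the list's median. High scores were shared with the other heterochromatic sequences, since 317 of 351 regions on 3LHet and 43 of 46 on 2LHet also exceeded it. Agreement between replicates also differed, with a Jaccard index of 0.637 on 3RHet and 0.195 on the first 2 Mb of 3R, where covered shares were lower. No 50 kb window of the first 2 Mb of 3R was dense in the combined list, and its highest was 54.6%.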

How the data were processed

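ChIP and input libraries were sequenced by the authors, who deposited a start, an end and a score for each enriched region; coordinates follow FlyBase release 5 (per the file headers). The submitters' processing notes list Bowtie 0.12.7. How regions were called, at what threshold, how repeated reads were placed and how inputs entered is not stated in these sources. There is 1 list per ChIP library and 1 for the replicate set. Groups follow sample titles, and nothing in the labels says that the 2 ChIP libraries came from separate collections, so their spread may be technical.

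Covered share is bases inside regions over the header length. The last combined region was clipped by 237 bp. Regions per Mb, blocks, spaces and windows were computed in Python 3.11.15 (pandas 2.3.3, NumPy 2.4.6, SciPy 1.17.1). The interval arithmetic gave the right answer in 200 of 200 comparisons on simulated lists. Means are over 2 replicates. Named regions are the 5 longest or highest of each kind, besides the dense and sparse runs of windows. The sequence, the comparisons and the limits were chosen with earlier results of these data known. Genes and sequences are not given, because the only gene table here follows release 6. The score was deposited without a named scale, and the test of its log base was added after the values were seen. Unknown depth limits what a missing region shows. Alternatives were the top 50% by score, joining within 1 kb, other windows, limits and overlaps, other lengths of 3R and single lists.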

Additional observations from a re-analysis of the deposited data

How the results depend on the processing

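Of 41 alternatives, 25 moved a value by less than the spread between replicates, the 95% interval of a share or, for a count, at most 1.5 times, and 16 moved it further; none reversed a difference. Without 1 replicate the covered share of 3RHet was 33.7 to 40.4%, its difference from 3LHet −7.74 to −3.74 points, from 2LHet 8.98 to 9.81 and from the first 2 Mb of 3R 20.0 to 32.0. Leaving out 1 of 2 replicates always moves their mean by less than their SD. These alternatives were therefore bound to count among the 25 and show no stability. The combined list in place of the replicates gave a covered share of 51.9% and a difference from 2LHet of 11.8 points. With the top 50% by score, there were 121 regions per Mb, a median length of 2808 bp and a Jaccard index of 0.635. The covered share was then 50.8% in the combined list and 36.3% as a replicate mean. Most regions of 3RHet lie in that top 50%, 304 of 322 in the combined list, 253 of 263 in replicate 1 and 237 of 247 in replicate 2. This setting could therefore remove few of them, and the small change in covered share shows no stability. Joining regions less than 1 kb apart gave 76.3 regions per Mb, a median length of 4158 bp and an index of 0.642; fewer, longer regions follow from joining. In place of the combined list, replicate 1 gave 104 regions per Mb, a median of 2809 bp and a median score of 1.22, and replicate 2 gave 98.1 regions per Mb. That score is counted as a move, but scores of different lists are not on one scale, so it shows no change. The spread used for the median score was also taken between lists, so whether that score was counted as moved carries no meaning. Dense windows numbered 8 as reported, 30 at a limit of 50%, 12 and 2 in 50 kb equivalents with windows of 25 and 100 kb, and 0 in either replicate list alone, so the dense class is tied to its window, limit and list. The index has no spread of its own here, so any change in it was counted as a move. Causes of the other moves were not tested. No paired analysis was possible because ChIP and input libraries, the groups that share replicate numbers, were not compared; the sequences were set against each other within each replicate throughout. Unknown depth limits what a space without a region can show.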
